A study of Mus musculus with 18 samples.

Results

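The let-7 and miR-98 family was measured in small RNA libraries from 3 cell fractions of mouse brain. Its members were taken by name and not by a cutoff on their values, but earlier results of these data were known at the time. They are the 9 mature miRNAs mmu-let-7a-5p, mmu-let-7b-5p, mmu-let-7c-5p, mmu-let-7d-5p, mmu-let-7e-5p, mmu-let-7f-5p, mmu-let-7g-5p, mmu-let-7i-5p and mmu-miR-98-5p, written here without their prefix and arm. They are 9 of 1978 mature miRNAs and of 203513 features in the count table. All 9 were detected in each of the 18 libraries, and all 9 passed the filter on low counts in each comparison.

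The mice were 10 months old, untreated, and on a C57BL/6 background. Some were wild type (WT), and the others carried on both Atxn2 alleles a knocked-in, expanded CAG repeat (Atxn2-CAG100-KIN, here KIN) that models spinocerebellar ataxia type 2. Their brains were dissociated, and magnetic beads against CD11b took out microglia, beads against ACSA-2 then took out astrocytes, and neurons were what stayed unbound after other cells had been removed. The 6 groups (Astrocytes WT, Astrocytes KIN, Microglia WT, Microglia KIN, Neurons WT and Neurons KIN) held 3 libraries each. The expanded allele was present in every cell of a KIN brain, and the fractions were enriched rather than pure.

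Library totals ran from 1211118 to 4316748 counts, and the family held 2627 to 64943 of them. Mature miRNAs took 5.05 to 10.3% of an astrocyte library, 5.09 to 8.45% of a microglia library, and 0.964 to 2.13% of a library labelled neurons. Astrocytes WT replicate 2, at 8.30%, stood above the 5.05 and 6.09% of its group. The 4 myeloid miRNAs (miR-142a, both arms, miR-223 and miR-146a) made up 16.5 to 22.5% of mature miRNA in microglia and 0.0420 to 0.0821% in astrocytes. The miR-9 pair of the neural lineage made up 7.04 to 11.6% in astrocytes, 0.0719 to 0.408% in microglia and 10.0 to 19.2% in the fraction labelled neurons. It thus did not set astrocytes apart from the fraction labelled neurons. The 4 neuronal miRNAs (miR-124, miR-128, miR-138 and miR-132) were lower per library in the fraction labelled neurons than in astrocytes. They summed to 52.8 to 241 CPM there (counts scaled to a common library total) and to 1051 to 3224 in astrocytes. As a share of mature miRNA they made up 0.548 to 1.25% there and 1.25 to 3.88% in astrocytes, so these ranges met. The study describes its neuron population as mostly pure by marker transcripts. Because the neuronal miRNAs were not enriched over astrocytes, the fraction labelled neurons is called the flow-through fraction here. Erythroid miRNAs reached 0.298 to 1.57% of its mature miRNA against at most 0.155% in the other fractions. Endothelial, mural and choroid plexus lists stayed at or under 1.37% of mature miRNA in every library. Oligodendrocyte miRNAs summed to 74.1 CPM in Neurons WT replicate 2 and to at most 5.97 in the other 5 flow-through libraries, against 830 to 2148 in astrocytes. Xist, the transcript that silences an X chromosome in female cells, lay at 1.27 to 2.13 CPM in the 3 libraries numbered KIN 1 and at 7.59 to 36.3 in the other 15. The study describes pairs of KIN and WT littermates matched by sex, most of them male, which these levels do not match.

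The let-7 miRNAs are among the most abundant miRNAs of differentiated animal cells. A mature miRNA is cut from a hairpin by Drosha and Dicer, is loaded into an Argonaute protein, and guides it to messenger RNAs that pair with its seed, the bases next to its 5′ end. Lin28 proteins block the processing of let-7 in stem and progenitor cells, so mature let-7 accumulates as cells differentiate, and its known targets include growth and cell cycle genes such as Hmga2, Igf2bp1, Nras and Ccnd2.

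The 9 mature sequences are shown because they set what the counts can tell apart. They are given 5′ to 3′ in DNA letters, from RefSeq, where all 9 of 9 members were matched, with the seed (bases 2 to 8) in capitals.
let-7a-5p: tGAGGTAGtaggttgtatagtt
let-7b-5p: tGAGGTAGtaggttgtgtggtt
let-7c-5p: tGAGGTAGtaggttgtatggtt
let-7d-5p: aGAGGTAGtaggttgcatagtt
let-7e-5p: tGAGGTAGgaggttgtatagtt
let-7f-5p: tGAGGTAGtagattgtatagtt
let-7g-5p: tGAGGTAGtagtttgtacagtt
let-7i-5p: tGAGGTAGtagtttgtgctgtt
miR-98-5p: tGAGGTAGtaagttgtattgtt
All 9 are 22 bases long, so their counts need no correction for length. Adapters were ligated to both ends, and whether all members were captured equally was not measured. An order of members here is thus an order of counts. All share the seed GAGGTAG. Counted from 1 at the 5′ end, let-7c differs from let-7a by A19G alone, let-7e by T9G alone and let-7f by G12A alone. Let-7b carries A17G and A19G, let-7d T1A and T16C, let-7g G12T and T18C, and miR-98 G11A and A19T. Let-7i is farthest from let-7a, with G12T, A17G, T18C and A19T. Of the 36 pairs of members, 4 differ by 1 base (let-7a with let-7c, let-7e and let-7f, and let-7b with let-7c). Reads were placed with no limit on mapping quality, so a read with an error or a trimmed end at these bases could be counted on a neighbour, and the split among these 5 members is the least certain.

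The members come from 12 hairpin genes on 7 chromosomes (GRCm39 in all cases). Mature let-7a lies at chr13:48691715-48691736 on the minus strand, in an exon of the lncRNA gene 6720427I07Rik, together with let-7f at chr13:48691365-48691386 and let-7d at chr13:48689554-48689575. A second copy of let-7a lies at chr9:41448028-41448049 in an intron of Mir100hg, beside Mir100. Let-7c lies at chr16:77396560-77396581 in an intron of Mir99ahg, beside Mir99a, and again at chr15:85590817-85590838, beside let-7b at chr15:85591526-85591547 in an exon of Lncppara. Let-7e lies at chr17:18050628-18050649 in an intron of Spaca6, with Mir99b and Mir125a next to it. The second let-7f at chrX:150695349-150695370 and miR-98 at chrX:150696225-150696246 share an intron of Huwe1. Let-7g at chr9:106056045-106056066, in an intron of Wdr82, and let-7i at chr10:122821603-122821624, in an exon of the lncRNA gene Gm63655, are the hairpins with no other miRNA hairpin within 10000 bases. Mature let-7a, let-7c and let-7f therefore each pool the output of 2 hairpin genes that the count cannot separate.

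The make-up of the family differed between the WT fractions. In Astrocytes WT, let-7c was the most abundant member at 3061 ± 503 CPM of the library total (mean ± SD, n = 3), followed by let-7a at 2394 ± 460 and let-7f at 2359 ± 779. In Microglia WT, let-7f led at 1840 ± 141, followed by let-7c at 1454 ± 149 and let-7a at 1371 ± 111. In Neurons WT, let-7c led at 917 ± 190, followed by let-7b at 362 ± 108 and let-7f at 330 ± 145. Let-7e and miR-98 were low throughout. Let-7e stood at 305 ± 78.4 in astrocytes, 109 ± 8.93 in microglia and 55.2 ± 19.6 in the flow-through fraction, and miR-98 at 69.2 ± 23.9, 43.6 ± 2.11 and 6.26 ± 3.87. Within each fraction the neighbours in the order lay within their spread in several places, as for let-7a and let-7f in astrocytes, let-7c and let-7a in microglia, and let-7b, let-7f and let-7a in the flow-through fraction.

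**Figure D1:**
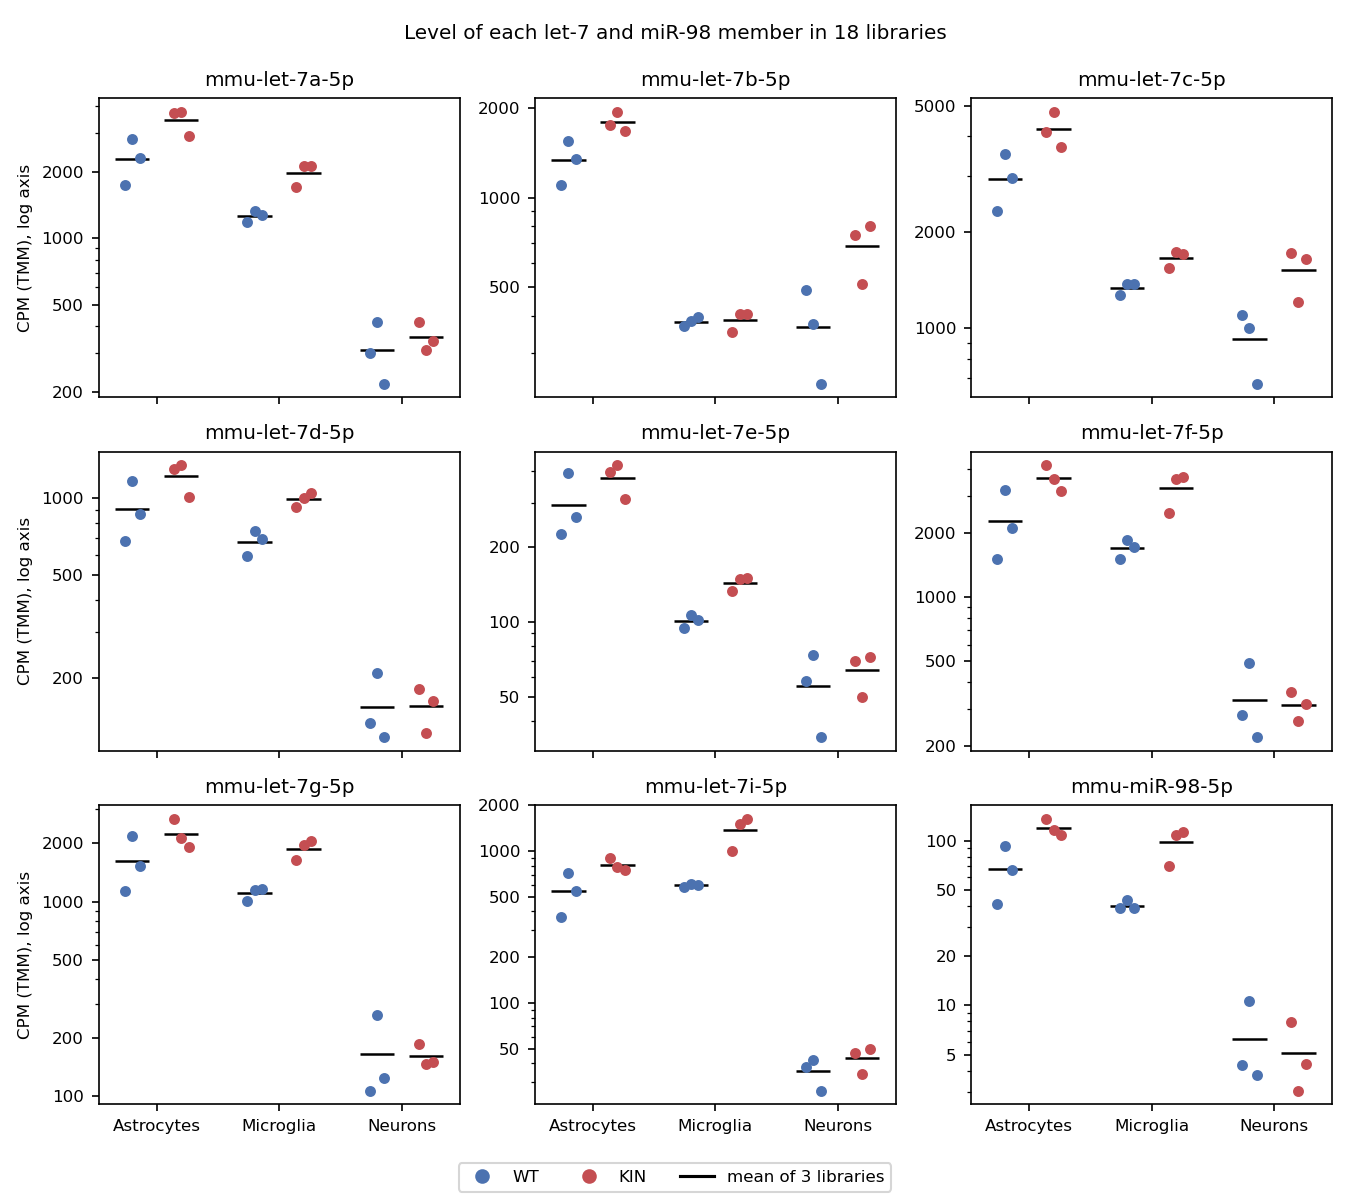
Normalized CPM of each member in each library on a log axis, by fraction and genotype, with a point per library and a line at each group mean. Let-7i in microglia separates by genotype, with the KIN libraries from 1002 to 1632 and the WT libraries from 582 to 606, while let-7b there overlaps.

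Between Microglia WT and Astrocytes WT, let-7b, let-7e, let-7c and let-7a differed, each lower in microglia. Tested with edgeR's quasi-likelihood test and Benjamini-Hochberg adjustment over all features, 4 of 9 members passed an adjusted p of 0.05, all lower in microglia, where 20.0% of all features tested passed in that direction. Of these, let-7b (log2 fold change -1.65 ± 0.20 SE, adjusted p = 0.000148) and let-7e (-1.38 ± 0.26, adjusted p = 0.0023) also passed an absolute log2 fold change of 1, which 19.3% of features did in that direction. Let-7c differed by -0.97 ± 0.20 (adjusted p = 0.00366) and let-7a by -0.70 ± 0.21 (adjusted p = 0.0231). Let-7d (-0.26 ± 0.23), let-7f (-0.26 ± 0.26), let-7g (-0.39 ± 0.24), miR-98 (-0.57 ± 0.32) and let-7i (0.29 ± 0.25) had adjusted p-values of 0.188 to 0.449 and did not pass. The median over members was -0.57, over all features -0.22 and over mature miRNAs -0.28. Of 418 mature miRNAs tested, 154 passed as lower. Without Astrocytes WT replicate 2, let-7d, let-7f and let-7g had the opposite sign (0.15, 0.25 and 0.07) and only 1 member passed both thresholds.

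All 9 members were far lower per library in the flow-through fraction than in astrocytes, though let-7b and let-7c turned to higher there once counts were scaled to mature miRNA alone. Against Astrocytes WT, the libraries of Neurons WT had log2 fold changes from -4.21 ± 0.39 for let-7i (adjusted p = 0.0015) to -1.96 ± 0.27 for let-7c (adjusted p = 0.00231). All 9 members passed the test as lower, where 18.6% of features did, and all 9 passed both thresholds, where 18.5% did in that direction. The member median was -3.05, and that over all mature miRNAs tested was -2.66, against -0.50 over all features. Of 362 mature miRNAs tested, 212 passed as lower. Against Microglia WT, 8 of 9 passed as lower, where 14.7% of features did, and 7 passed both thresholds, where 14.5% of features did. Let-7i showed the largest difference (-4.37 ± 0.35, adjusted p = 0.000123) and let-7b the smallest (-0.38 ± 0.33, adjusted p = 0.418). Of 343 mature miRNAs tested, 199 passed as lower, with a median over all 343 of -2.56 against -2.44 over members. Scaled to mature miRNA alone, let-7b and let-7c stood at 0.29 and 0.49 against astrocytes and at 1.69 and 1.21 against microglia. Let-7e stood at 0.82 against microglia. Most calls ended under this scaling, with 2 of 9 members past the thresholds against astrocytes and 4 against microglia, 2 of these higher. Under it 3104 of 5916 features passed both thresholds against astrocytes and 3079 of 5166 against microglia, in either direction. The medians over all features were then 1.79 and 1.85. In these bulk libraries, fewer cells of a type and less RNA per cell cannot be told apart. The p-values measure the spread between these 3 libraries a group, which the titles tell apart by number only.

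Genotype was compared within each fraction. In KIN microglia let-7i, miR-98, let-7f and let-7g rose. Scaled to mature miRNA alone they kept their sign (0.78, 0.83, 0.50 and 0.35) but none passed, and none passed with library totals. All 9 log2 fold changes were positive (median 0.65, against -0.11 over all features and 0.46 over 382 mature miRNAs), though let-7b and let-7c turned negative when counts were scaled to mature miRNA alone (-0.40 and -0.10) and let-7b also when they were scaled to library totals (-0.20). Of the 9 members, 4 passed, all as higher, where 1.76% of all features passed as higher, and 2 passed both thresholds, where 1.42% did. Among mature miRNAs alone, 12.3% passed in either direction.

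Let-7i, 1 of the 2 members whose hairpin stands alone, had 582, 606 and 595 normalized CPM in Microglia WT and 1002, 1518 and 1632 in Microglia KIN. The groups did not overlap, and KIN replicate 1 lay lowest in its group. The log2 fold change was 1.22 ± 0.22 (edgeR, adjusted p = 0.0248). MiR-98, at 38.7, 43.5 and 38.9 in WT and 70.4, 109 and 113 in KIN, changed by 1.27 ± 0.25 (adjusted p = 0.0268). It showed the same order of libraries, again with KIN replicate 1 between the WT libraries and the other KIN libraries.

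Let-7f, which shares the Huwe1 intron with miR-98 through its X-linked copy, had 1523, 1862 and 1730 in WT and 2491, 3595 and 3665 in KIN. It rose by 0.93 ± 0.21 (adjusted p = 0.0401). Let-7g, at 1005, 1148 and 1162 in WT and 1638, 1951 and 2047 in KIN, rose by 0.77 ± 0.18 (adjusted p = 0.0473). Neither reached a log2 fold change of 1, and neither overlapped between genotypes.

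Let-7a had 1188, 1334 and 1281 in WT and 1717, 2131 and 2123 in KIN, with no overlap, but did not pass (0.65 ± 0.18, adjusted p = 0.0688). Let-7d (0.55 ± 0.18, adjusted p = 0.101), let-7e (0.51 ± 0.19, adjusted p = 0.139) and let-7c (0.31 ± 0.17, adjusted p = 0.303) did not pass either, although their libraries did not overlap. Let-7b had 368, 383 and 395 in WT and 352, 404 and 406 in KIN. These values overlapped, and the log2 fold change was 0.02 ± 0.18 (adjusted p = 0.967). In all, 8 of 9 members lay above WT without overlap, which 13.2% of all features did. On library totals 4 of 9 did so, against 8.12% of features, and let-7a to let-7e overlapped.

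These microglial calls depended on single libraries. Leaving out WT replicate 1, WT replicate 3, KIN replicate 2 or KIN replicate 3 left no member past the threshold in each case, whereas without WT replicate 2 there were 6 and without KIN replicate 1 there were 5. Of all features, 0 to 0.214% passed as higher in the first 4 cases, 9.00% without WT replicate 2 and 3.93% without KIN replicate 1. KIN replicate 1 was the microglial library with the low Xist count. Let-7f and miR-98 have X-linked copies, whereas let-7i, let-7g and let-7a have none. Without this library, edgeR gave 1.44 for miR-98 (adjusted p = 0.00921), 1.39 for let-7i (adjusted p = 0.00591) and 1.07 for let-7f (adjusted p = 0.0123). It gave 0.84 for let-7g (adjusted p = 0.0244) and 0.73 for let-7a (adjusted p = 0.0359). Whether the Xist level bears on these calls was not tested. The 4 myeloid miRNAs moved with genotype too, from 16.5 to 17.3% of mature miRNA in Microglia WT to 21.1 to 22.5% in Microglia KIN, while the miR-9 pair stood at 0.162 to 0.408% and 0.0719 to 0.101%, and endothelial miRNAs at 0.416 to 0.522% and 0.202 to 0.282%. Neuronal miRNAs stood at 0.127 to 0.326% and 0.0696 to 0.0878% in the same groups, and mural ones at 0.281 to 0.396% and 0.101 to 0.162%. The part of these shifts in the result was not tested.

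In KIN astrocytes let-7a and let-7c rose, though both turned negative when counts were scaled to mature miRNA alone (-0.11 and -0.18). All 9 members had positive log2 fold changes, of which 7 turned negative under that scaling (-0.09 to -0.32), let-7f and miR-98 being the exceptions. The member median was 0.52, against 0.58 over the 418 mature miRNAs tested and -0.19 over all features. Of the 9 members, 2 passed, both as higher, where 4.88% of all features passed as higher and 19.6% of mature miRNAs passed in either direction. None reached a log2 fold change of 1, which 1.79% of features did as higher.

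Let-7a, made from the chromosome 13 and chromosome 9 hairpins, had 1756, 2823 and 2324 normalized CPM in Astrocytes WT and 3709, 3770 and 2930 in Astrocytes KIN. The groups did not overlap, but WT replicate 2 came close to KIN replicate 3. The log2 fold change was 0.59 ± 0.16 (edgeR, adjusted p = 0.0443). Let-7c, the most abundant astrocytic member, had 2326, 3526 and 2969 in WT and 4140, 4788 and 3712 in KIN. It rose by 0.52 ± 0.15 (adjusted p = 0.0486) and did not overlap.

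MiR-98 had 41.2, 92.6 and 66.6 in WT and 136, 115 and 108 in KIN. Its groups did not overlap, and its fold change was the largest of the family, but it did not pass (0.84 ± 0.26, adjusted p = 0.0619). Let-7b (0.43 ± 0.13, adjusted p = 0.0538) and let-7i (0.58 ± 0.20, adjusted p = 0.0791) also lay above WT without overlap. That made 5 of 9 members, where 14.8% of all features did so, and 4 of 9 on library totals, where 10.8% did and let-7a overlapped. Let-7d, let-7e, let-7f and let-7g overlapped, with WT replicate 2 above the lowest KIN library, and their log2 fold changes of 0.36 to 0.68 had adjusted p-values of 0.0689 to 0.236. Astrocytes WT replicate 2 was the WT library richest in mature miRNA. Without it all 9 members passed, with adjusted p-values from 0.00127 to 0.00786, and so did 12.6% of all features as higher. Without any of the other 5 libraries no member passed, and 0.722 to 1.54% of features passed as higher. In the same comparison the miR-9 pair stood at 11.3 to 11.6% of mature miRNA in WT and 7.04 to 8.22% in KIN, and neuronal miRNAs at 2.43 to 3.88% and 1.25 to 1.97%. Endothelial miRNAs stood at 0.678 to 0.729% and 0.260 to 0.447%, mural ones at 0.370 to 0.459% and 0.282 to 0.339%, choroid plexus ones at 0.868 to 1.18% and 0.459 to 0.669%, and myeloid ones at 0.0420 to 0.0439% and 0.0523 to 0.0821%. Their part in the result was not tested.

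In the flow-through fraction no member passed, and no feature of the whole table did (0% by edgeR and by DESeq2, although 197 and 124 features had an unadjusted p under 0.05). Let-7c and let-7b were the 2 members with an unadjusted p under 0.05 and the 2 that lay above WT without overlap, which 4.87% of features did. Let-7c had 1101, 999 and 670 normalized CPM in WT and 1728, 1206 and 1647 in KIN, a log2 fold change of 0.73 ± 0.27 (unadjusted p = 0.021, adjusted p = 0.917). Let-7b had 487, 375 and 236 in WT and 748, 510 and 799 in KIN, a log2 fold change of 0.91 ± 0.33 (unadjusted p = 0.0191, adjusted p = 0.917). The other 7 members overlapped, with log2 fold changes from -0.33 ± 0.56 for miR-98 to 0.29 ± 0.37 for let-7i. Neurons WT replicate 2 held the highest WT value of each of these 7. Without it the signs of let-7f, let-7g and miR-98 turned (0.29, 0.44 and 0.30). MiR-98 rested on 5 to 21 counts per library here.

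**Figure D2:**
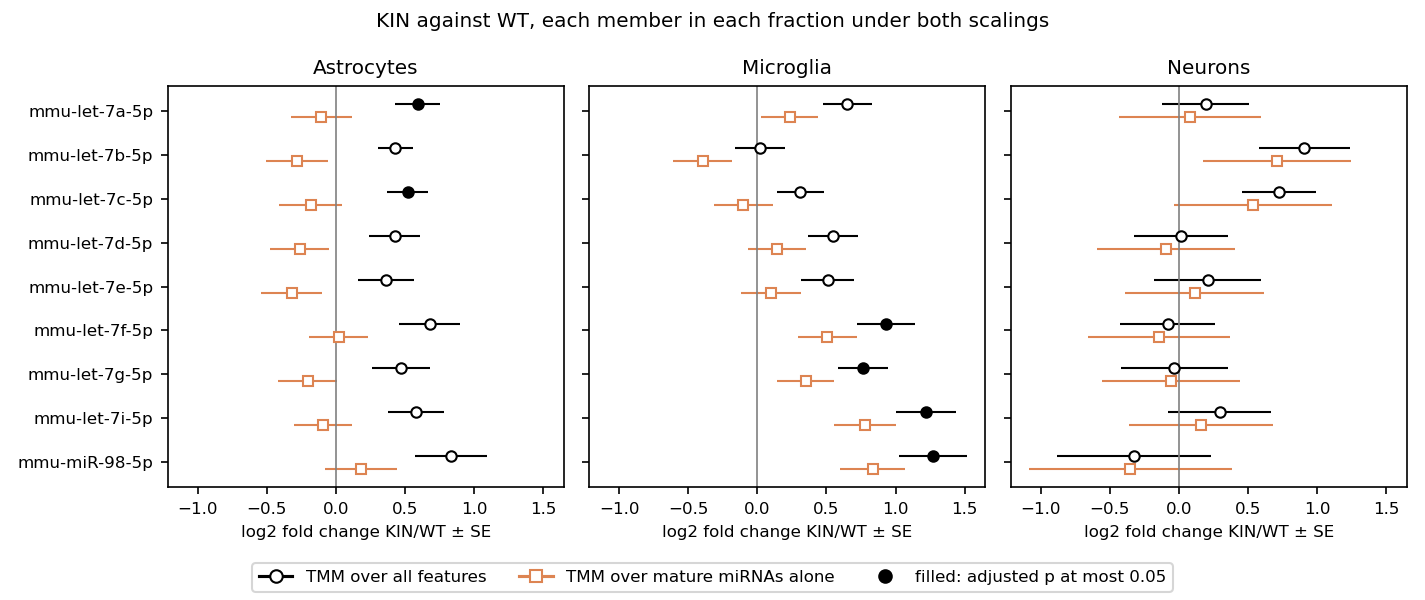
Log2 fold change of KIN against WT for each member in each fraction, with bars of the standard error of the edgeR fit. Circles are scaled by TMM over all features and squares over mature miRNAs alone, and filled symbols have an adjusted p of at most 0.05. The squares lie left of the circles in astrocytes and microglia, where microglial let-7i (1.22) and miR-98 (1.27) have the highest circles and 7 of 9 astrocytic members change sign between the scalings.

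Summed over its members, the family separated by genotype in microglia with TMM scaling only. It reached 9155, 15629 and 12023 normalized CPM in Astrocytes WT and 19190, 18894 and 15553 in Astrocytes KIN, where WT replicate 2 lay inside the KIN range. Microglial sums did not overlap, at 6667, 7597 and 7374 in WT against 9867, 12593 and 12883 in KIN, but as CPM of the library total KIN replicate 1 (8277) lay under WT replicate 3 (8533). Flow-through sums overlapped, at 2509, 2877 and 1651 in WT against 3740, 2647 and 3543 in KIN. As differences of the mean log2 sums, KIN less WT, these were 0.57, 0.70 and 0.52, and the astrocytic ratio turned to -0.14 when scaled to mature miRNA.

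As a share of mature miRNA counts the family differed little between genotypes. It took 19.7, 18.8 and 20.8% in Astrocytes WT and 18.3, 19.2 and 17.6% in Astrocytes KIN. It took 14.9, 14.1 and 14.2% in Microglia WT and 14.1, 15.0 and 14.5% in Microglia KIN. Its flow-through shares were 24.5, 15.1 and 15.9% in Neurons WT, against 18.0, 18.9 and 22.7% in Neurons KIN. The genotypes overlapped in all 3 fractions. Single members still separated on this scale. In microglia 4 members lay above WT without overlap and 4 below, where 12.6 and 33.2% of 382 mature miRNAs did so. In astrocytes 1 lay above and 2 below, where 18.4% did in each direction, and in the flow-through fraction none lay above and 2 below, where 4.15 and 15.7% did.

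**Figure D3:**
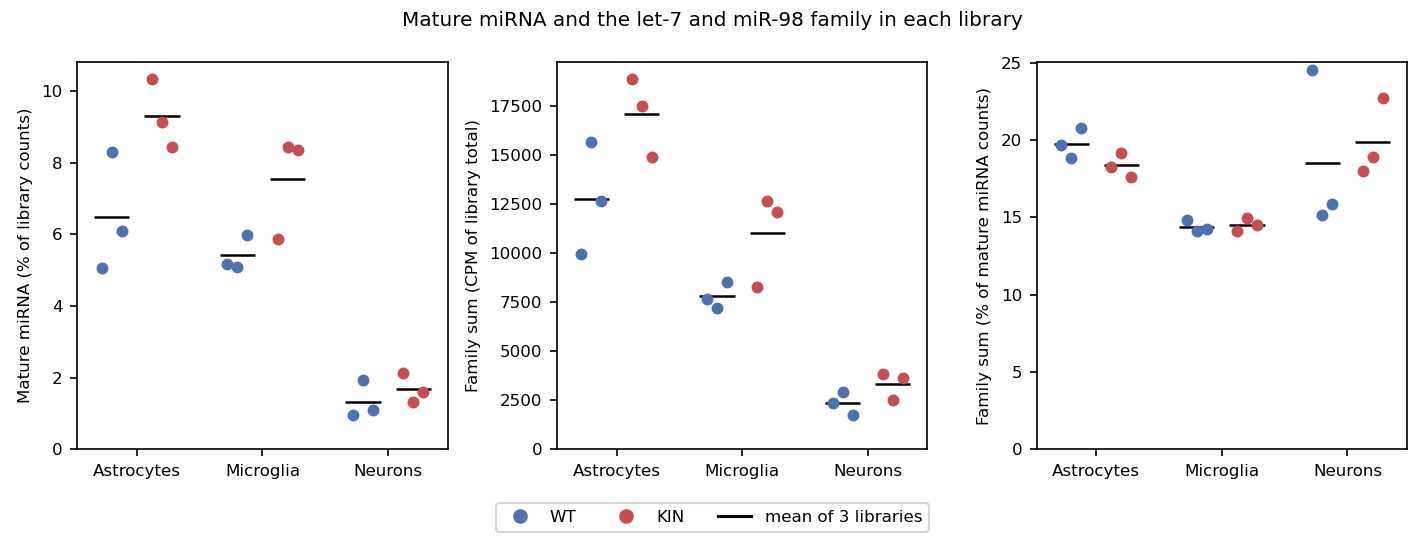
Mature miRNA as a percent of library counts (left), the family sum in CPM of the library total (middle) and the family sum as a percent of mature miRNA counts (right), by fraction and genotype, with a point per library and a line at the mean of 3. The left and middle panels show the same pattern, with Astrocytes WT replicate 2 and Microglia KIN replicate 1 nearest the other genotype, and the right panel shows microglia at 14.1 to 15.0% in both genotypes.

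The make-up of the family, taken as each member's percent of the 9 members together, does not depend on the scaling between libraries. In microglia it shifted toward let-7i, let-7f and miR-98 and away from let-7b and let-7c. Let-7i took 8.73, 7.97 and 8.08% of the family in WT and 10.2, 12.1 and 12.7% in KIN (group means 8.26 ± 0.413 and 11.6 ± 1.31%). Let-7f took 22.8, 24.5 and 23.5% in WT and 25.2, 28.5 and 28.4% in KIN. Neither of these overlapped between genotypes, and neither did miR-98, at group means of 0.560 ± 0.0289 and 0.818 ± 0.0905%. In the other direction, let-7b took 5.52, 5.04 and 5.35% in WT and 3.57, 3.21 and 3.15% in KIN. Let-7c took 19.1, 18.1 and 18.7% in WT and 15.6, 13.8 and 13.2% in KIN. Let-7e was also lower without overlap, while let-7a, let-7d and let-7g overlapped. Other features have no share of this family, so in no fraction is there a background for separations on this scale. On the log2 scale the shares differed by -0.68 ± 0.07 (SE) for let-7b, -0.39 ± 0.08 for let-7c, 0.21 ± 0.07 for let-7f, 0.49 ± 0.10 for let-7i and 0.54 ± 0.10 for miR-98. The exact two-sided permutation p was 0.1 for each, which is the smallest that 3 against 3 libraries allow, or 0.193 after Benjamini-Hochberg adjustment over 27 tests.

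The flow-through fraction differed the other way for let-7c and let-7f. Let-7c took 43.9, 34.7 and 40.6% of the family in WT and 46.2, 45.6 and 46.5% in KIN. Let-7f took 11.2, 17.0 and 13.3% in WT and 9.55, 9.90 and 8.92% in KIN, without overlap. Let-7a, let-7d, let-7e and let-7i were lower in KIN without overlap, and let-7b (15.6 ± 3.38 and 20.6 ± 1.72%), let-7g and miR-98 overlapped. All of these shares had an adjusted p of 0.193 or more by exact permutation. In the same libraries the miR-9 pair stood at 10.0 to 13.8% of mature miRNA in WT and 17.0 to 19.2% in KIN, and erythroid miRNAs at 0.617 to 1.57% and 0.298 to 0.361%, and their part in the result was not tested. Neurons WT replicate 2, the library richest in oligodendrocyte miRNAs of that fraction, had the lowest share of let-7c and the highest share of let-7f. It also had the highest CPM among the WT libraries of that fraction for every other list of cell type miRNAs. Of these WT libraries it held the most mature miRNA, at 1.93% of counts against 0.964 and 1.08%. Without it the difference in log2 share was 0.13 in place of 0.22 for let-7c and -0.37 in place of -0.53 for let-7f.

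In astrocytes 7 of 9 shares overlapped between genotypes. MiR-98 was higher at 0.450, 0.593 and 0.554% in WT and 0.707, 0.609 and 0.692% in KIN, and let-7d was lower at 7.41, 7.43 and 7.20% in WT and 6.74, 7.09 and 6.45% in KIN.

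**Figure D4:**
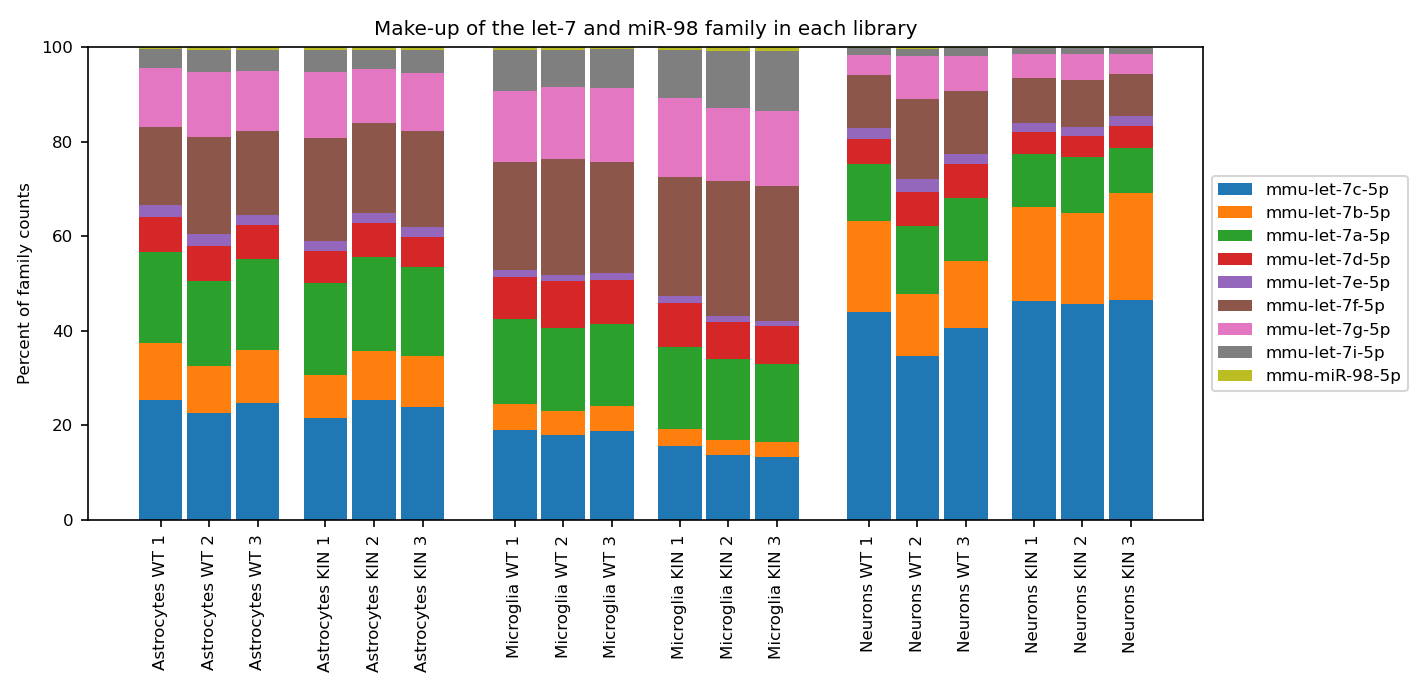
Stacked bars of the percent of family counts taken by each member in each of the 18 libraries, by fraction and genotype. Let-7c takes 34.7 to 43.9% in Neurons WT and 45.6 to 46.5% in Neurons KIN against 13.2 to 15.6% in Microglia KIN, and let-7i and let-7f in microglia take more in KIN than in WT.

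The genotype effects in microglia and astrocytes were compared by an interaction term fitted to both fractions, which came from the same brains and were fitted as independent libraries. No member passed with edgeR or DESeq2 and none had an unadjusted p under 0.05 with edgeR, while 22 features, or 0.312% of those tested, passed with edgeR. The largest difference was that of let-7i, whose log2 fold change was 0.66 ± 0.33 greater in microglia (unadjusted p = 0.0657, adjusted p = 0.516). The member median was 0.15, against -0.07 over all features and -0.29 over mature miRNAs. A larger effect on let-7i or miR-98 in microglia than in astrocytes was thus not shown by this test.

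Reads placed on the hairpin transcripts gave a second readout of the members. These reads were those left after placement on mature miRNAs, and they came to 7.53 to 9.65% of hairpin and mature reads together for let-7b and to 36.8 to 58.8% for miR-98. These hairpin fits used TMM over all features, and other scalings or left-out libraries are not given for them. In microglia all 12 hairpins had positive fold changes and 4 passed as higher, where 1.76% of all features did. Of these, 2 passed a log2 fold change of 1, where 1.42% of features did as higher. These were Mirlet7i (1.44 ± 0.23, adjusted p = 0.0195) and Mir98 (1.16 ± 0.25, adjusted p = 0.036), and Mirlet7f-1 (0.90 ± 0.22, adjusted p = 0.0499) and Mirlet7g (0.76 ± 0.18, adjusted p = 0.0483) passed below it. These are hairpins of the 4 members that passed as mature miRNAs. Hairpin reads can be mature molecules with altered ends, so they are no independent measure of the precursor. For let-7i the hairpin share was 22.8 ± 0.123% in Microglia WT and 25.6 ± 0.317% in Microglia KIN, and 30.2 ± 0.342 and 30.6 ± 0.924% in astrocytes. In astrocytes 5 of 12 hairpins passed, all as higher (Mirlet7a-1, Mirlet7a-2, Mirlet7c-1, Mirlet7f-1 and Mir98, at 0.54 to 0.92), where 4.88% of all features did. In the flow-through fraction no hairpin passed, with 3 at an unadjusted p under 0.05. The 2 hairpins of let-7a carry the same mature sequence, and likewise those of let-7c and those of let-7f. Reads of that sequence can fall on either hairpin, so a call on Mirlet7f-1 does not set it apart from Mirlet7f-2.

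The opposite arms of the same hairpins, which are mostly degraded after processing, were scarce. Let-7d-3p was the most abundant of 12 with 3697 counts over all libraries, or 7.92% of both arms. For the other members made from a single hairpin gene (let-7b, let-7e, let-7g, let-7i and miR-98) the opposite arm stood at 0.115 to 3.63%. The 12 arms have 11 distinct sequences, so they are not 12 separate measures. In astrocytes all 12 had positive fold changes, as did 346 of 418 mature miRNAs. Let-7f-2-3p passed (1.18 ± 0.32, adjusted p = 0.0443), where 4.88% of all features passed as higher. In microglia 8 of 10 tested were positive, as were 267 of 382 mature miRNAs, and none passed (1 with an unadjusted p under 0.05). In the flow-through fraction none of 4 tested passed (0 unadjusted). Let-7j, a further annotated arm outside the 9 members, was higher in Microglia WT than in Astrocytes WT (1.44 ± 0.38, adjusted p = 0.0132) and had 80, 59 and 57 counts in Microglia WT and 64, 154 and 123 in Microglia KIN (log2 fold change 0.82, adjusted p = 0.107).

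The miR-99/100 and miR-125 miRNAs are made from the same clusters as let-7a, let-7c and let-7e. In astrocytes 4 of the 5 passed as higher in KIN, where 4.88% of all features and 73 of 418 mature miRNAs did. They were miR-125b (0.89 ± 0.11, adjusted p = 0.00287), miR-100 (1.05 ± 0.18, adjusted p = 0.0101), miR-99a (0.95 ± 0.17, adjusted p = 0.0117) and miR-125a (0.55 ± 0.16, adjusted p = 0.0485). These values use TMM over all features, with which the median over mature miRNAs was 0.58. Values scaled to mature miRNA alone are not given for these 5. MiR-125b had 5513, 7078 and 6514 normalized CPM in WT and 12592, 12200 and 10630 in KIN, and its groups were far apart. The cluster mates let-7a and let-7c had smaller values in the same libraries (0.59 and 0.52). In microglia none of the 5 passed, 2 of them with an unadjusted p under 0.05, and their log2 fold changes ran from -0.08 for miR-100 to 0.55 for miR-99a. None passed in the flow-through fraction, adjusted or not. MiR-100 also separated the fractions, with 537 ± 158 in Astrocytes WT and 12.3 ± 0.771 in Microglia WT (-5.29 ± 0.30, adjusted p = 7.48e-07), whereas let-7a, made in part from the hairpin beside it, differed by -0.70 ± 0.21.

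Transcripts of the genes that process let-7 and of its known targets were represented by short fragments only. Of 107 transcripts of processing genes, 79 had a count, and 6, 8 and 9 could be tested in astrocytes, microglia and the flow-through fraction. None passed between genotypes, and 1, 0 and 0 had an unadjusted p under 0.05. Lin28a had no count and Lin28b had 2 over all libraries. Between WT fractions, Tut7-204, of a gene whose product adds uridines to let-7 precursors, was higher in microglia than in astrocytes (1.38 ± 0.41, adjusted p = 0.0237). The 5 tested transcripts of Hnrnpa1, an RNA-binding protein that acts on the let-7a precursor, were higher in the flow-through fraction than in either other fraction. Of 154 target transcripts, 93 had a count and 5, 9 and 5 could be tested between genotypes, with none passing and 1, 3 and 0 at an unadjusted p under 0.05. The 4 tested transcripts of Tgfbr1, a TGF-beta receptor, had log2 fold changes from -0.67 to -1.70 in microglia, with a lowest adjusted p of 0.0657. Tgfbr1-201 was higher in Microglia WT than in Astrocytes WT (5.85 ± 0.61, adjusted p = 5.27e-05), as were the 3 other tested transcripts of the gene and Nras-201 (1.48 ± 0.52, adjusted p = 0.0466). Against Microglia WT, 3 Tgfbr1 transcripts were lower in the flow-through fraction, Tgfbr1-201 among them (-3.87 ± 0.92, adjusted p = 0.0121). Ccnd2-201, of the cell cycle gene cyclin D2, was higher in the flow-through fraction than in astrocytes (4.81 ± 0.64, adjusted p = 0.00208) and microglia (5.54 ± 0.80, adjusted p = 0.00113), and Igf2bp2-201 was higher there than in astrocytes (1.36 ± 0.40, adjusted p = 0.0361).

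Of 63 other mature miRNAs with a mean of at least 100 CPM, those whose levels ran most like the family sum over the 18 libraries were miR-99b-5p (Pearson's r = 0.991), miR-30d-5p (0.984), miR-23b-3p (0.975), miR-27b-3p (0.974) and miR-26a-5p (0.969). All points share the content of mature miRNA of their library, which differs between fractions. Within the 6 flow-through libraries the values of these 5 were 0.863, 0.685, 0.591, 0.411 and 0.459. They ran from 0.924 to 0.976 within astrocytes and from 0.887 to 0.989 within microglia. MiR-99b-5p, from the let-7e cluster, stayed the closest of the 5, and the other miRNAs were not ranked within a fraction.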

How the data were processed

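Small RNA was measured in 18 libraries, grouped by their titles into 6 groups of 3. After trimming in Cutadapt (4.6), the authors aligned reads with Bowtie2 (2.4.4, local mode, mm39) in successive rounds that began with mature miRNAs, and HTSeq (2.0.2) counted them without strand or a limit on mapping quality. The deposited values are whole-number counts per feature. The kit carries molecular identifiers, but whether they were collapsed in these libraries is not given in the sources used here, so counts are treated as reads. The SD, SE and p-values given rest on the spread between libraries. The fold changes, p-values and means in the authors' table were not used, nor were 36 further columns of values per library.

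Features that reached 5 counts in 2 or more libraries of a comparison were fitted in R 4.3.3 with edgeR 4.0.16 (trimmed mean of M-values, TMM, quasi-likelihood test, Benjamini-Hochberg over all features). The fit included only the groups compared. A standard error is the fold change over the root of its F value. Normalized CPM values use TMM factors of the comparison of genotypes within a fraction. A member passed if its adjusted p was 0.05 or lower, and the study's further threshold was an absolute log2 fold change of 1. Make-up was tested within fractions by exact permutation (scipy 1.17.1). The method was checked on simulated data. Alternatives were DESeq2 1.42.0, library totals, TMM from mature miRNA, no filter, all 18 libraries in 1 fit, a replicate block, each library left out and, added after seeing the data, hairpin reads summed with mature ones.

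The text names all 9 members and, from lists of opposite arms, hairpins, cluster partners, processing genes and known targets, those that passed in any comparison or are partners of a member, and the 5 miRNAs most like the family sum. The members and lists were chosen with earlier results of these data known. Deviations from the group means were correlated between same-numbered libraries, at r = 0.149, 0.313 and 0.106 for Neurons WT with Astrocytes WT. For Microglia WT with Astrocytes WT they were 0.289, 0.346 and 0.0432. In both, replicates 1 and 2 matched their own number best and replicate 3 did not. Between Neurons WT and Microglia WT only replicate 2 did. The labels do not say that a number marks a brain. The block changed none of the 9 calls in either comparison with Astrocytes WT. Positions are from GENCODE vM39.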

Additional observations from a re-analysis of the deposited data

Results flagged for a closer look

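For 3 members the share of the family separated by genotype without overlap in opposite directions in microglia and in the flow-through fraction. Other features have no share of this family, so no background stands beside this count. As shares of mature miRNA, 12.6% of 382 miRNAs lay above WT without overlap in microglia and 33.2% below. In the flow-through fraction 4.15 and 15.7% of 217 did. For let-7f the log2 share differed by 0.21 in microglia and by -0.53 in the flow-through fraction, a difference of 0.74. For let-7i the values were 0.49 and -0.22, a difference of 0.70. For let-7c they were -0.39 and 0.22, a difference of -0.61. The difference was not tested, since both fractions came from the same 6 brains, for which genotype has 20 arrangements and a smallest 2-sided p of 0.1. Shares of 1 family sum to a whole, so these are not separate results. Without Neurons WT replicate 2 the changes in the flow-through fraction were -0.37 for let-7f, -0.24 for let-7i and 0.13 for let-7c. With each library left out in turn they kept their sign, from -0.67 to -0.37, -0.26 to -0.18 and 0.13 to 0.30 there and from 0.18 to 0.27, 0.42 to 0.58 and -0.46 to -0.34 in microglia. Oligodendrocyte miRNAs stood at 4.13, 74.1 and 0 CPM in Neurons WT and at 4.53 to 5.97 in Neurons KIN, so they were high in WT replicate 2 only. That library also had the highest CPM in Neurons WT for every other list of cell type miRNAs. The miR-9 pair stood at 10.0 to 13.8% of mature miRNA in Neurons WT and 17.0 to 19.2% in Neurons KIN. The part of any of these in the flow-through shares was not tested.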

How the results depend on the processing

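In astrocytes 2 members passed between genotypes, where 4.88% of all features passed as higher. The number was 5 with DESeq2 (8.41% of features), 6 without a filter on low counts (0.515%, 1 of the 6 past a log2 fold change of 1), and 0 with library totals (3.25%), with TMM from mature miRNA (0.299%) and with all 18 libraries in 1 fit (0.293%). In microglia 4 passed, 2 of them past that fold. These numbers were 0 and 0 with library totals and with TMM from mature miRNA, and 1 and 1 with all 18 libraries, where 0.648, 0.567 and 0.573% of features passed as higher in place of 1.76%. The family sum was -0.14 in astrocytes and 0.29 in microglia under TMM from mature miRNA, and 0.48 in microglia with library totals. Between WT fractions, TMM from mature miRNA left 2 of 9 members past the thresholds in the flow-through fraction against astrocytes and 4 against microglia (2 higher, 2 lower). In these comparisons 3104 of 5916 and 3079 of 5166 features passed the same thresholds in either direction. With the replicate block, 7 members passed in astrocytes (6.85% of features as higher) and 0 in microglia (0.324%), and let-7g in the flow-through fraction turned to 0.080. In no fraction did same-numbered KIN and WT libraries match each other best, and the labels do not say which libraries are a littermate pair.

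TMM from mature miRNA turned astrocytic let-7a (-0.11), let-7b (-0.28), let-7c (-0.18), let-7d (-0.26), let-7e (-0.32), let-7g (-0.20) and let-7i (-0.091), microglial let-7b (-0.40) and let-7c (-0.10), let-7d in the flow-through fraction (-0.092), and between WT fractions let-7b (0.29) and let-7c (0.49) against astrocytes and let-7b (1.69), let-7c (1.21) and let-7e (0.82) against microglia. It moved the median of all features from -0.19 to -0.91 in astrocytes and from -0.11 to -0.53 in microglia. Library totals turned microglial let-7b (-0.20) and the difference between the genotype effects in microglia and astrocytes for let-7a (-0.031). Without the filter, microglial let-7b (-0.023), let-7f (0.081) and let-7g (0.12) in the flow-through fraction and the same difference for let-7a (-0.090), let-7d (-0.034) and let-7e (-0.0006) turned. In the flow-through fraction let-7f (0.041) and let-7g (0.075) turned with all 18 libraries, and let-7g with DESeq2 (0.001) and with hairpin reads added (0.031). The cause was not tested for any of these.

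With each library left out, 0 to 9 members passed in astrocytes and 0 to 1 past the fold, 0 to 6 and 0 to 3 in microglia, and 1 to 3 members passed both thresholds between WT microglia and WT astrocytes. Ranges across 0 were -0.10 to 0.068 for microglial let-7b. In the flow-through fraction they were -0.12 to 0.27 for let-7d, -0.0035 to 0.46 for let-7e, -0.26 to 0.29 for let-7f, -0.27 to 0.44 for let-7g and -0.77 to 0.30 for miR-98. Between WT microglia and WT astrocytes they were -0.40 to 0.15 for let-7d, -0.46 to 0.25 for let-7f and -0.56 to 0.072 for let-7g. For the difference between the genotype effects they were -0.32 to 0.20 for let-7a, -0.31 to 0.24 for let-7d, -0.33 to 0.26 for let-7e, -0.27 to 0.46 for let-7f, -0.18 to 0.45 for let-7g and -0.072 to 0.67 for miR-98. Over all alternatives the adjusted p of microglial let-7i ran from 1.39e-05 to 0.136 and that of astrocytic let-7a from 0.0031 to 0.710. MiR-98 in the flow-through fraction rests on 5 to 21 counts per library, the fewest of any member.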
